A study of Mus musculus with 2 samples.

Results

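The actin cytoskeleton and phagocytic cup genes described here are 48 named protein-coding genes out of 21938 on chromosomes 1 to 19, X and Y of the mouse genome mm10 (GRCm38, GENCODE M21). They were chosen by name, for their role in actin assembly and engulfment, with earlier results of these data known. All 48 were found in the annotation. By role they comprise 7 genes of actin and monomer handling, 9 of the Arp2/3 complex, 11 of the WASP and WAVE regulators, 3 of barbed-end capping, 3 coronins, 5 formins and Ena/VASP proteins, 4 myosins, and 6 cross-linkers and adhesion proteins. For each gene the bases of its first 3 kb and of its whole length that lay under peaks of the histone modification H3K79me2 were counted.

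Macrophages engulf particles by pushing a cup of membrane around them, and the force comes from branched actin filaments. The Arp2/3 complex starts new branches, the WASP and WAVE proteins switch it on beneath an engaged receptor, and capping proteins, cofilin, profilin and thymosin set how fast filaments grow and how many free monomers remain. Blood cells use their own versions of several of these parts, and inherited loss of Was, Coro1a or Nckap1l orthologues in humans causes immunodeficiency. H3K79me2 is placed by the methyltransferase Dot1l over the first part of transcribed genes and is known to accompany transcription elongation.

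H3K79me2 was mapped by ChIP-seq in unstimulated primary macrophages grown from bone marrow of C57BL/6J mice, in 1 group of 2 biological replicates, each from 10 ng of DNA. Both replicates carry 1 donor identifier in the labels, which give neither sex nor age and leave unsaid whether separate animals or cultures were used, so differences between the replicates may be technical. The deposited data are 4 peak lists without read counts, which leaves library depth unknown: a list for each replicate, a list from the pooled reads, and a replicated list made from both, which is the main list below. Of the 10 macrophage marker genes 9 were marked by the replicated list, as defined below (90%, against 30.3% of all coding genes), and all 10 had covered bases. No covered base was found in the 5 markers each of T and NK cells, B cells, neutrophils, fibroblasts, muscle, and megakaryocytes and erythroid cells. The same held for 14452 of all 21938 coding genes.

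The window of a gene is its first 3 kb from the outermost 5′ end in the annotation, or the whole gene where it is shorter, and a gene with 200 bp or more of that window under a list counts as marked by it. Where no peak was called, H3K79me2 may still have been present at a level too low to be called. Replicate 1's list covered 63.5 Mb and replicate 2's covered 114 Mb, and this gap runs through every comparison of the replicates. The replicated list covered 93.2 Mb in 15559 peaks, of which 15202 were also peaks of the pooled list, so it is not a measurement apart from the replicates. For 44 of the 48 genes the bases of the first 3 kb under the pooled list equalled those under the replicated list. The exceptions were Abi3, Actn1, Pfn1 and Wipf1. With 1 group and 2 replicates no test was run. Values are of the replicated list unless another list is named.

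The starts of 3 blood-cell genes, each with that of a widely expressed relative, are shown with every CpG dinucleotide in capitals. CpG content is set against coverage further on. The last start shown, that of Wasf1, is CpG-rich and belongs to a gene with no peak. Each RefSeq window (GRCm38.p6) runs 5′ to 3′ from 250 bp before to 50 bp after a start. The windows are Was (chrX:8090442-8090741, minus strand), Wasl (chr6:24664946-24665245, minus strand), Myo1f (chr17:33555457-33555756, plus strand), Myo1e (chr9:70207100-70207399, plus strand), Coro1a (chr7:126704767-126705066, minus strand, the start of its basic-set transcript Coro1a-201), Coro1c (chr5:113908657-113908956, minus strand) and Wasf1 (chr10:40883284-40883583, plus strand).
Was: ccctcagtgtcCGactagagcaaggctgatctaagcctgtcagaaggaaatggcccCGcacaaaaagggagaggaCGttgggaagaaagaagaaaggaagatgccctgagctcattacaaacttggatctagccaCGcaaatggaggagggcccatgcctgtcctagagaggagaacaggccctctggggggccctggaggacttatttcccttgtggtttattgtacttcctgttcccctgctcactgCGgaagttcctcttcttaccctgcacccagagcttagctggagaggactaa
Wasl: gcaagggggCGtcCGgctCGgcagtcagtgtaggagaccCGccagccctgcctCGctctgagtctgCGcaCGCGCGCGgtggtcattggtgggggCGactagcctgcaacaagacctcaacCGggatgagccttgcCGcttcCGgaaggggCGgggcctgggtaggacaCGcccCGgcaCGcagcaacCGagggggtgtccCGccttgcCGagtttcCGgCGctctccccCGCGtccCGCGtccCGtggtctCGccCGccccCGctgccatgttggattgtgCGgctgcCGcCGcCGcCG
Myo1f: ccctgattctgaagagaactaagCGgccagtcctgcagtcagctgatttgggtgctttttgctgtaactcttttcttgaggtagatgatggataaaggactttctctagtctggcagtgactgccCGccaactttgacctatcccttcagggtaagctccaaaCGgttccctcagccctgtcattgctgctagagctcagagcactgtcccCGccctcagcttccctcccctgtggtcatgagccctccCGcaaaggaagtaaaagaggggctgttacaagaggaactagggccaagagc
Myo1e: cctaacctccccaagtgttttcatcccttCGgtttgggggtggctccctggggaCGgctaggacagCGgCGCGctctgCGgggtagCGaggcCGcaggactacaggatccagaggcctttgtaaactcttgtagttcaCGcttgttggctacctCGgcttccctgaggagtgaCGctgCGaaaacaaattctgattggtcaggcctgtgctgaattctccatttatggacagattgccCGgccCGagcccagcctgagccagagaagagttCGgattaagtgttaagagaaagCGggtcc
Coro1a: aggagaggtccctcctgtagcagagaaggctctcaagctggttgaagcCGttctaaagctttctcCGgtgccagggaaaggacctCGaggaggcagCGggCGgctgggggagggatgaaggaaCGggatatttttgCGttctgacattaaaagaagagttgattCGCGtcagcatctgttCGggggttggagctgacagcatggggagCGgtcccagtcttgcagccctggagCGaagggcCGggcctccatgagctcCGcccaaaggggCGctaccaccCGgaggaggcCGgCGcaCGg
Coro1c: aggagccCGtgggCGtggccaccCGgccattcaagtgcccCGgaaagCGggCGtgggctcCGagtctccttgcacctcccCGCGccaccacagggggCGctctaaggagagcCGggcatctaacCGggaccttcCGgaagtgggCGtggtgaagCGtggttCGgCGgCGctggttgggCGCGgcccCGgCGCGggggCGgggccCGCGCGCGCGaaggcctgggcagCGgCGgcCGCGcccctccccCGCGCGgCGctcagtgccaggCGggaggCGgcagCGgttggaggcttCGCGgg
Wasf1: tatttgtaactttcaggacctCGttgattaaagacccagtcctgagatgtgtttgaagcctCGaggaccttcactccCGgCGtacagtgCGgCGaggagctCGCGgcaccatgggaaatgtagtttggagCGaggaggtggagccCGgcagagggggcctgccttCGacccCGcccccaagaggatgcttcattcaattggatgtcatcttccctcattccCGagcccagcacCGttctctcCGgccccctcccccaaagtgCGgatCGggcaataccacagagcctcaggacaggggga
The window of Was held 5 CpG dinucleotides and that of Wasl 36. Myo1f had 5 and Myo1e 16, Coro1a had 19 and Coro1c 42, and Wasf1 had 17. Within each pair the blood-cell gene held fewer, but Coro1a held more than Myo1e and Wasf1. The windows were almost free of peaks: the replicated list covered 42 bp of the Myo1f window, 26 bp of the Coro1a window and no base of the other 5. Where peaks were called, they thus lay downstream of these starts.

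Most of the genes carried H3K79me2 peaks within their first 3 kb. The outermost start itself lay under a peak of the replicated list in 4 of the 42 marked genes (9.52%). Among all marked coding genes that share was 8.02%. In the replicated list 42 of 48 (87.5%) were marked, against 30.3% of all protein-coding genes. Replicate 1's list marked 42 (87.5%) against 27.2% of all coding genes, replicate 2's list marked 44 (91.7%) against 35.6%, and the pooled list marked 43 (89.6%) against 34.3%. The same 42 genes were marked in both replicates' lists, 2 in replicate 2 alone (Abi3 and Flna), none in replicate 1 alone and 4 in neither (Wasf1, Nckap1, Coro1a and Evl). The median gene had 85.3% of its first 3 kb and 59.5% of its whole length covered. In replicate 1 these medians were 71.6% and 49.1%, and in replicate 2 they were 89.7% and 63.4%.

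Coverage spread far into the genes. In the replicated list 29 of the 48 genes had at least 50% of their length covered, with 23 in replicate 1 and 33 in replicate 2. The share was 60.4%, against 10.1% of all coding genes. At least 80% was covered in 12 genes (25.0%, against 2.99% of all coding genes), with 14 in replicate 2 but 5 in replicate 1 (10.4% against 1.04%). Only Wasf1, Nckap1 and Abi3 had no covered base in the replicated list. The longest block in a marked gene had a median of 13640 bp, with 8512 bp in replicate 1 and 12947 bp in replicate 2, against 5066, 3082 and 4496 bp over all marked coding genes. The marked genes were covered in a single block in 15 of 42 cases (35.7%), against 57.3% of all marked coding genes. Neither comparison of blocks was matched for gene length, and a block counted here cannot exceed its gene. The median length was 42275 bp over the 48 genes and 17425 bp over all coding genes. Most of the covered bases were intronic: exons made up a median of 5.98% of the covered bases of the marked genes and 12.2% of their length. Marked coding genes in general were alike in this, with medians of 7.46% and 19.9%.

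**Figure D1:**
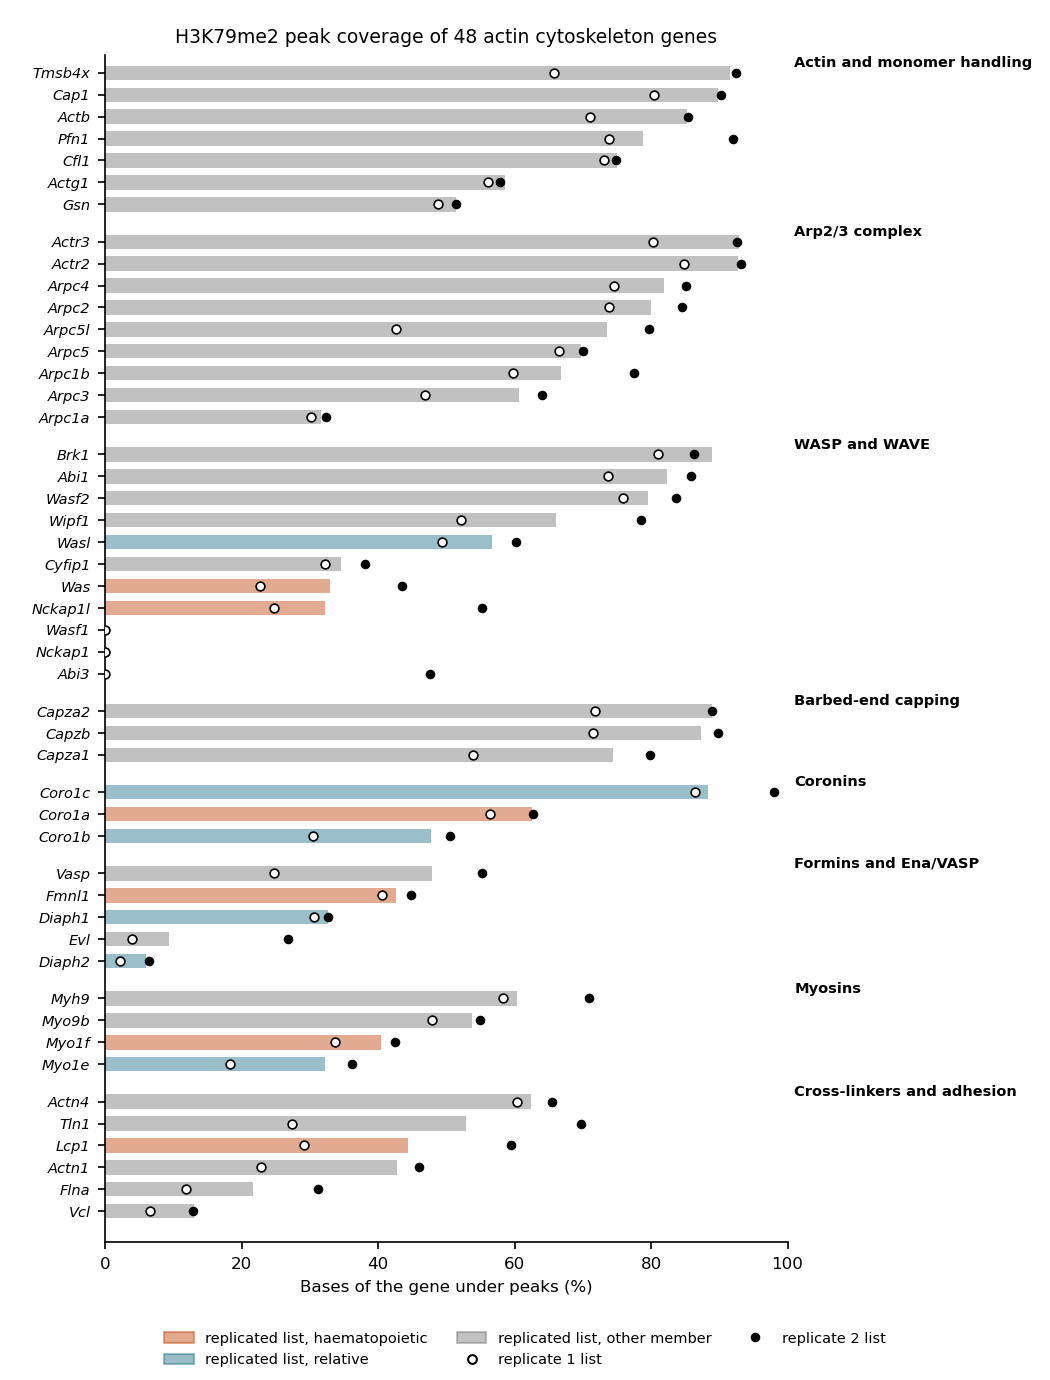
Percent of each gene's length under H3K79me2 peaks for the 48 genes, grouped by role; bars are the replicated list (orange, haematopoietic genes; blue, their widely expressed relatives; grey, the others), open circles replicate 1 and filled circles replicate 2. Bars reach 92.8% at Actr3 and are absent at Wasf1, Nckap1 and Abi3, and Abi3 has a filled circle at 47.6% with its open circle at 0.

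All 7 genes of actin and monomer handling were marked in every list, with a median of 78.8% of the gene covered in the replicated list. Actb and Actg1, which encode the cytoplasmic β- and γ-actins, had 82.2% and 58.6% of their windows covered, with 65.2% and 56.2% in replicate 1 and 82.4% and 57.8% in replicate 2. Tmsb4x, the gene of the monomer-sequestering thymosin β4, had 91.6% of its 2223 bp covered, with 65.8% in replicate 1 and 92.5% in replicate 2. Its fold, the authors' ratio over the control for the highest peak touching the window, was 5.64, below the median of 21.5 over the marked genes here. Cap1, which encodes a cyclase-associated protein that recycles actin monomers, had 89.8% covered at a fold of 31.6, with 80.4% in replicate 1 and 90.3% in replicate 2. The remaining members were Pfn1 (profilin), Cfl1 (the filament-severing cofilin) and Gsn (gelsolin, which severs and caps), with 78.8%, 75.0% and 51.4% covered, 73.9%, 73.1% and 48.8% in replicate 1 and 92.0%, 74.9% and 51.5% in replicate 2. Tmsb4x thus stood near the top of the genes by coverage and low by fold.

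All 9 genes of the Arp2/3 complex, which nucleates branched filaments, were marked in every list, with a median of 73.5% of the gene covered. The genes of its actin-related subunits led: Actr3 had 39760 bp (92.8%) covered, with 34380 bp in replicate 1 and 39683 bp in replicate 2. Actr2 had 46911 bp (92.7%), with 42941 bp in replicate 1 and 47171 bp in replicate 2. Their longest blocks were 38856 bp and 42876 bp and their folds 33.3 and 34.8. The alternative subunits of each kind were marked together. Arpc1b, the form that predominates in blood cells, had 66.8% covered at a fold of 31.1, and its relative Arpc1a had 31.7% at 15.4, the lowest coverage in the complex. Both overlap another coding gene. Arpc5 had 69.8% covered at a fold of 18.8 and its relative Arpc5l 73.5% at 6.03. In replicate 1 the order by covered share was the reverse, with 66.6% in Arpc5 and 42.6% in Arpc5l, and in replicate 2 it was 70.0% and 79.8%. The highest peak of Arpc5l, at a fold of 10.9, began 3057 bp from its start. Arpc5l overlaps the coding genes Rpl35 and Wdr38, and Arpc5 overlaps none. Peaks carry no strand, so bases shared with such genes cannot be assigned to either. The other subunit genes, Arpc2, Arpc3 and Arpc4, had 80.1%, 60.6% and 81.9% covered, and Arpc4 overlaps Ttll3.

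Among the 11 genes of the WASP and WAVE regulators, which activate Arp2/3, 8 were marked in the replicated list (72.7%, against 30.3% of all coding genes). Replicate 1 marked 8 (72.7% against 27.2%) and replicate 2 marked 9 (81.8% against 35.6%). Wasf2, which encodes the WAVE isoform known to predominate in macrophages, had the highest fold of the 48 genes, with 2649 bp of its first 3 kb covered, 2402 bp in replicate 1 and 2773 bp in replicate 2. Its folds were 36.3 in the replicated list, 26.3 in replicate 1 and 42.2 in replicate 2. Wasf1, the WAVE isoform best known from brain, had no covered base of its 55096 bp in any of the 4 lists, at either of its 2 starts. Of the other WAVE complex subunits, Brk1 had 88.9% of the gene covered (81.0% in replicate 1 and 86.4% in replicate 2). Abi1 had 82511 bp covered, of which 52983 bp lay in a single block, with longest blocks of 33445 bp in replicate 1 and 52999 bp in replicate 2. Cyfip1, which links the complex to Rac, had 34.7% covered. Wipf1, which encodes the partner that stabilises WASP, had 66.1% covered. The highest fold of a peak touching its first 3 kb was 10.2, and its highest peak, at 33.2, began 53925 bp into the gene.

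The capping genes Capza1, Capza2 and Capzb, whose products close the growing ends of filaments, were all marked, with 74.4%, 88.9% and 87.3% of the gene covered. Capzb held a single block over 86338 bp in the replicated list, the third longest within any coding gene. Its longest block was 49218 bp in replicate 1 and 87274 bp in replicate 2, and its folds in the 3 lists were 34.7, 22.3 and 41.1. The long block was thus broken in replicate 1, where 70764 bp of the gene were covered in all.

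The myosin genes were all marked. Myh9, which encodes the heavy chain of non-muscle myosin IIA, had a fold of 34.7 in the replicated list, 24.2 in replicate 1 and 40.0 in replicate 2, with 60.4% of the gene covered. Among cross-linkers and adhesion genes, Actn4, an α-actinin gene, had a single block of 43133 bp, with longest blocks of 17590 bp in replicate 1 and 43232 bp in replicate 2. Its relative Actn1 had 42.7% covered, 22.8% in replicate 1 and 46.0% in replicate 2. Tln1, the gene of the integrin activator talin, had 52.9%, with 27.3% and 69.8%. Vcl, which encodes the adhesion protein vinculin, was low in fold, at 4.96, and in covered share of the gene, at 13.0% (6.61% in replicate 1 and 12.9% in replicate 2), with 841 bp of its window covered in replicate 1 against 2448 bp in replicate 2. Of the Ena/VASP genes, whose products speed filament growth, Vasp had 47.9% covered, 24.7% in replicate 1 and 55.2% in replicate 2.

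By fold, the marked genes stood high in the list. Of the 100 marked coding genes with the highest fold of a peak touching the first 3 kb, 10 were among these genes. That is 23.8% of the 42 marked ones against 1.5% of the 6658 marked coding genes. Of the highest 666, 19 were (45.2% against 10.0%). After Wasf2, Actr2, Capzb and Myh9 the next was Coro1c, a coronin gene, at 33.8. These counts are of the replicated list alone. The fold is that of a whole peak, which may run far past the window, as over 86338 bp in Capzb. A high place therefore need not describe the first 3 kb alone. Among the 42 genes marked in both replicates the order by fold was much alike (Spearman's rank correlation 0.93, as a description). Places among all marked coding genes moved more for some: Capza2 ranked 14 in replicate 1 and 229 in replicate 2, Cap1 25 and 261, and Actr3 31 and 132. Others stayed near the top, with Wasf2 at 3 and 9 and Actr2 at 22 and 9.

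The median covered share exceeded that of other marked genes of like length, in every length class. For genes under 5 kb the median covered share was 78.8% over 5 marked members and 69.5% over all marked coding genes. From 5 to 20 kb it was 68.3% (8 members) against 38.8%, from 20 to 50 kb 67.5% (10 members) against 27.6%, from 50 to 100 kb 55.2% (14 members) against 26.0%, and over 100 kb 32.2% (5 members) against 18.6%. In replicate 1 the 5 medians of the members ran from 18.3% to 71.1% and those of all marked coding genes from 11.8% to 52.7%, and in replicate 2 from 36.2% to 85.5% and from 18.9% to 69.2%. The members' median was the higher in every class of both lists. The covered share was lower in longer genes among the 42 marked genes (Spearman's rank correlation −0.34) while the covered bases were higher (0.88), as a description. The extremes of the longest class were Abi1 with 82.4% and Diaph2 with 5.99%.

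**Figure D2:**
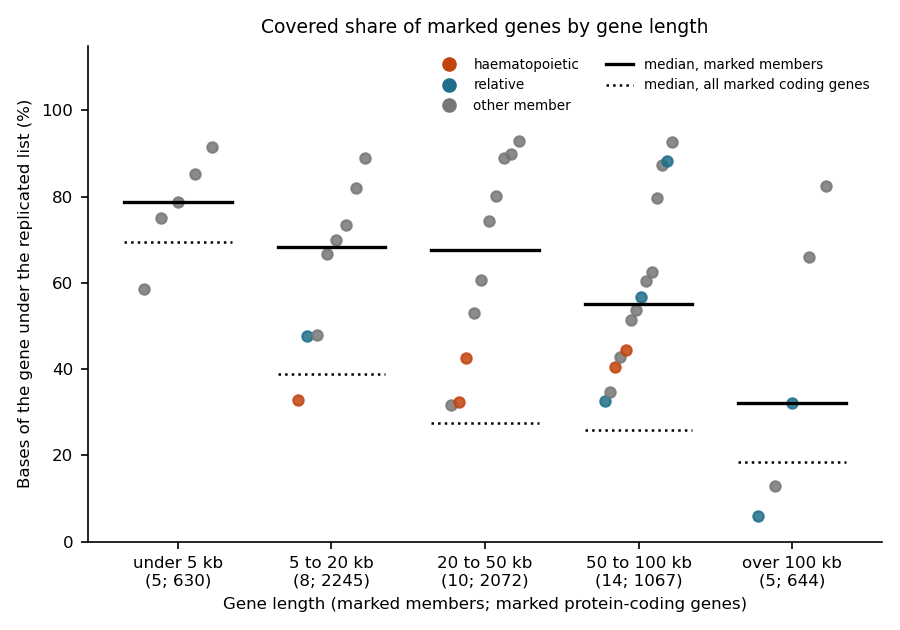
Percent of the gene under the replicated list for the 42 marked genes, by gene length class; points are genes (orange, haematopoietic; blue, widely expressed relatives; grey, others), solid lines their medians and dotted lines the medians of all marked protein-coding genes, with both numbers of genes under each class. The solid line lies above the dotted one in all 5 classes, at 67.5% against 27.6% from 20 to 50 kb.

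Among the 48 genes, the contrast of haematopoietic genes with their widely expressed relatives did not separate marked from unmarked genes as classes. Of the 6 haematopoietic genes 5 were marked, and of the 7 relatives 6 were, against 30.3% of all coding genes. From basic-set starts 6 and 6 were marked, against 31.2%. This count leaves out 4 listed relatives outside the 48 genes, Fmnl2, Fmnl3, Pls1 and Pls3. Of those 1 was marked, Fmnl3, and 3 had no covered base in any list. The haematopoietic genes had a median of 95.6% of the first 3 kb covered and the relatives 78.0%, with 82.1% against 67.1% in replicate 1 and 97.2% against 78.9% in replicate 2. Over the whole gene the medians were 41.5% and 32.7%, with 31.4% against 30.5% in replicate 1 and 50.1% against 36.2% in replicate 2, and over the marked genes alone in the replicated list they were 40.4% and 40.2%. The classes overlapped in both measures. Within the pairs the picture varied, and each is given in turn.

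The clearest contrast was in the HEM subunit of the WAVE complex. Nckap1l, which encodes the HEM1 protein of blood cells, had its first 3 kb covered over 3000 bp in the replicated list, 2927 bp in replicate 1 and 3000 bp in replicate 2. Across its 45017 bp the lists covered 14537, 11146 and 24892 bp, and its folds were 20.9, 13.5 and 27.7. Nckap1, which encodes the same subunit in most other tissues, had no covered base of 80869 bp in any of the 4 lists, at any of its 5 annotated starts. Both genes lie clear of other coding genes, Nckap1l at chr15:103453794-103498810 and Nckap1 at chr2:80500512-80581380.

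Was, which encodes the Wiskott-Aldrich syndrome protein of blood cells, and Wasl, which encodes its widespread relative N-WASP, were both marked. The first 3 kb of Was was covered over 2887 bp, 2060 bp in replicate 1 and 2930 bp in replicate 2, at folds of 13.4, 7.76 and 16.6. The same window of Wasl had 2341, 2306 and 2366 bp covered, at folds of 18.2, 9.76 and 26.1. Was was covered over 2978 bp (32.9%) of its length and Wasl over 29002 bp (56.6%). The relative was thus ahead in fold and in covered share, and Was in bases of the first 3 kb in the replicated list and in replicate 2.

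Myo1f, a class I myosin gene of immune cells, had 2992 bp of its first 3 kb covered, 2835 bp in replicate 1 and 3000 bp in replicate 2, at folds of 27.4, 19.2 and 35.3. Its relative Myo1e, which acts with it in phagocytosis in mouse macrophages, had 2624, 2032 and 2919 bp, at folds of 11.8, 8.52 and 13.6. Over the genes the replicated list covered 21029 bp (40.4%) of Myo1f and 61976 bp (32.2%) of Myo1e. Replicate 1's list covered 33.7% and 18.3% and replicate 2's 42.6% and 36.2%. Here the haematopoietic gene had the higher fold in all 3 lists.

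Coro1a, the coronin gene of blood cells, was called unmarked at its outermost annotated 5′ end, where 5 bp were covered in the replicated list, none in replicate 1 and 17 bp in replicate 2. That end belongs to a transcript outside the annotation's basic set, Coro1a-210. From the basic-set transcript Coro1a-201, which starts 2971 bp further in, 2976, 2756 and 2988 bp of the first 3 kb were covered, and over the whole gene 5020 bp (62.6%), 4517 bp and 5032 bp. Its relative Coro1b had 2587 bp (47.8%) of the gene covered, 1653 bp in replicate 1 and 2736 bp in replicate 2, and overlaps 2 other coding genes. Coro1a itself overlaps the coding gene Bola2, and the replicated peak of Coro1a runs past its end into Bola2. The other relative, Coro1c, had 58583 bp (88.3%) covered, 57362 bp in replicate 1 and 64986 bp in replicate 2, at folds of 33.8, 22.9 and 40.9. All 3 coronin genes therefore carried peaks near a basic-set start, and Coro1c had the highest covered share among the haematopoietic genes and their relatives.

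Fmnl1, a formin gene of blood cells, had 2729 bp of its first 3 kb covered, 2713 bp in replicate 1 and 2720 bp in replicate 2, at folds of 20.9, 16.7 and 25.7. The widely expressed formin genes Diaph1 and Diaph2 had 2779 and 1582 bp, with 2651 and 1517 bp in replicate 1 and 2797 and 1612 bp in replicate 2. Their folds were 25.5 and 9.13, with 14.4 and 3.82 in replicate 1 and 31.8 and 13.5 in replicate 2. Over the gene the replicated list covered 11860 bp (42.7%) of Fmnl1, 30022 bp (32.7%) of Diaph1 and 42910 bp (5.99%) of Diaph2, which spans 716093 bp. In replicate 1 the shares were 40.6%, 30.7% and 2.18%, and in replicate 2 they were 44.8%, 32.7% and 6.46%. Of the closer relatives outside the 48 genes, Fmnl3 was marked and Fmnl2 had no covered base.

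Lcp1, which encodes the bundling protein L-plastin of leukocytes, had 2848 bp of its first 3 kb covered, 2212 bp in replicate 1 and 2905 bp in replicate 2, at low folds of 4.94, 3.56 and 6.43. Its highest peak had a fold of 34.1 and began 48758 bp into the gene, and in replicates 1 and 2 peaks of 23.4 and 42.3 began at 48800 and 48743 bp. The replicated list covered 44211 bp (44.3%) of the gene, replicate 1's list 29046 bp and replicate 2's 59403 bp. The plastin genes of other tissues, Pls1 and Pls3, had no covered base in any list. The main peak of Lcp1 was thus in the body of the annotated gene and not at its outermost start.

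**Figure D3:**
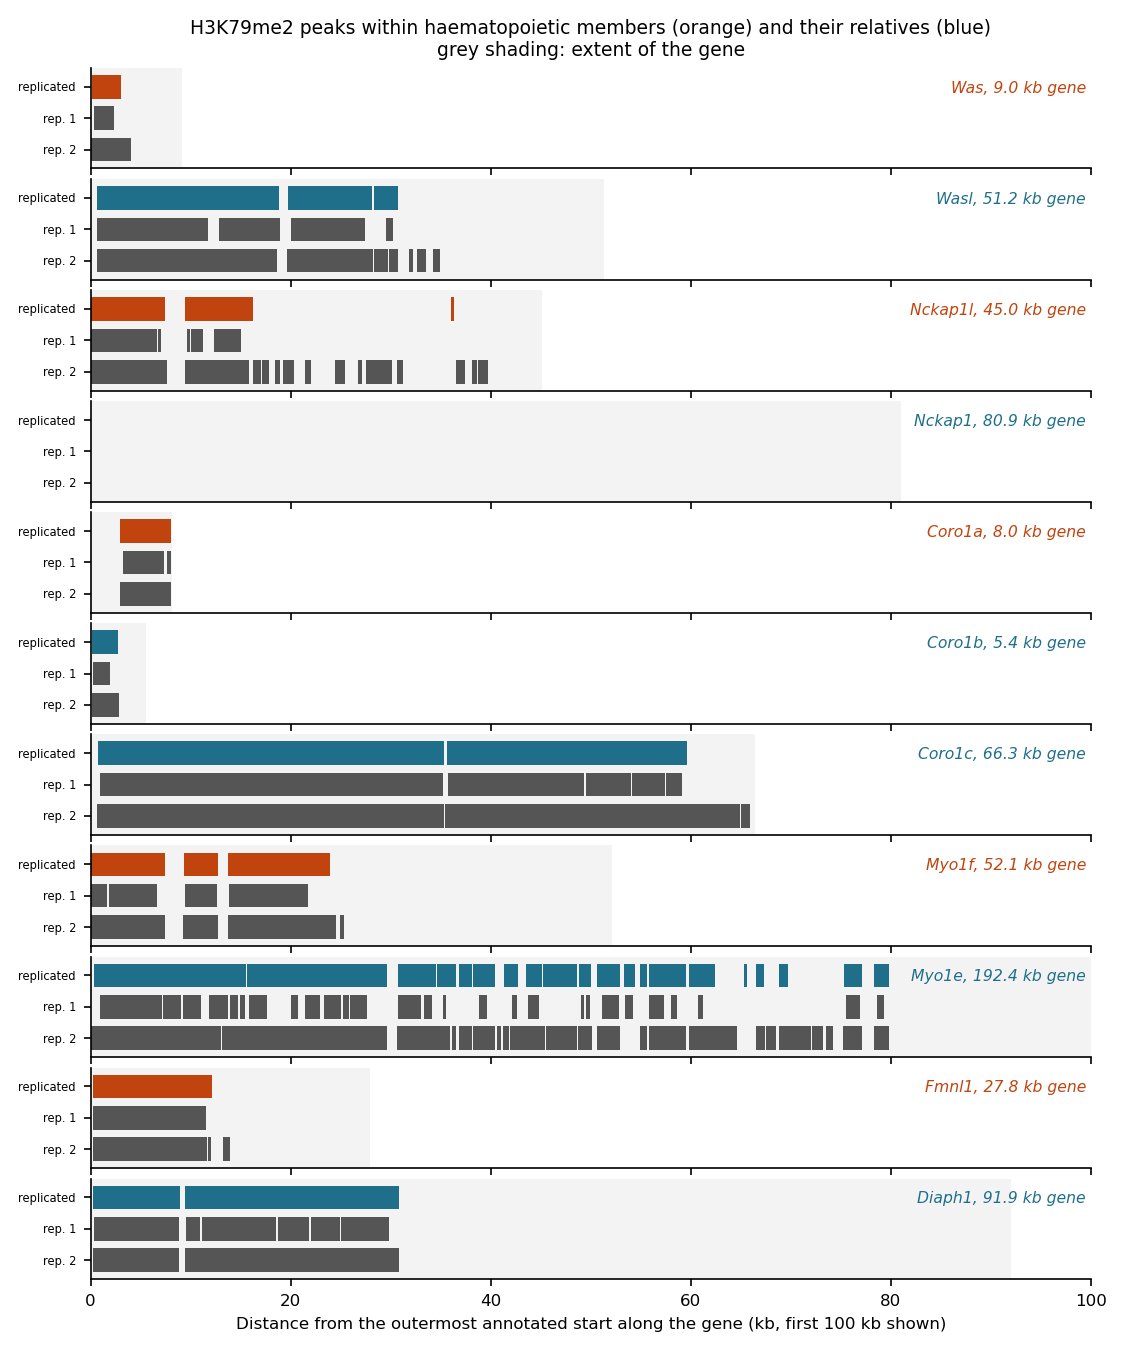
Peaks along haematopoietic genes (orange) and their widely expressed relatives (blue), by distance in kb from the outermost annotated start; the 3 rows of each gene are the replicated list, replicate 1 and replicate 2, and grey shading is the gene's extent within the first 100 kb. Nckap1 is empty in all rows, the peaks of Coro1a begin 2995 bp in, and the rows of Myo1e cover 35117 bp in replicate 1 and 69588 bp in replicate 2 over its whole length.

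Where the coverage began also differed between the pairs. Counted from the outermost basic-set start in the replicated list, the start already lay under a peak in Nckap1l and Lcp1, and coverage began at 8 bp in Myo1f, 24 bp in Coro1a, 113 bp in Was and 271 bp in Fmnl1. In the relatives it began at 117 bp in Coro1b, 221 bp in Diaph1, 358 bp in Myo1e, 659 bp in Wasl, 786 bp in Coro1c and 1418 bp in Diaph2. The medians were 16 bp over the 6 haematopoietic genes and 508.5 bp over the 6 marked relatives, with 142 bp against 822 bp in replicate 1 and 6 bp against 418.5 bp in replicate 2. A start under a peak counted as 0 bp. The haematopoietic value depends on the start: from the outermost start the medians over marked genes were 113 bp and 517.5 bp, with 287 bp against 831 bp in replicate 1 and 70 bp against 418.5 bp in replicate 2. The groups overlapped, since coverage began later in Fmnl1 than in Coro1b and Diaph1. Over all marked coding genes the median was 363 bp.

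**Figure D4:**
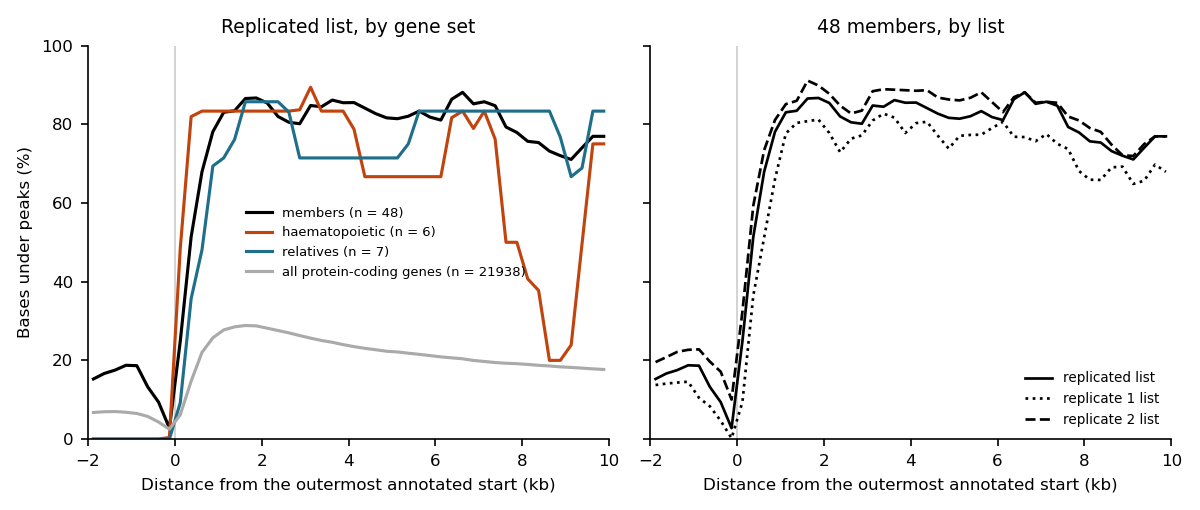
Percent of bases under peaks in 250 bp bins by distance in kb from the outermost annotated start, for gene sets in the replicated list (left) and for the 48 genes in the replicated list and each replicate's list (right). Coverage of the haematopoietic genes reaches 48.5% in the first bin after the start, that of the relatives 9.26%, and that of all coding genes 6.19%.

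CpG content of the start moved with the class in most haematopoietic genes and relatives. The region of 500 bp on both sides of the outermost start was CpG-rich, meaning a ratio of observed to expected CpG no lower than 0.6 at 50% GC or more, in 38 of the 48 genes (79.2%), against 44.4% of all coding genes and 79.1% of marked coding genes. Among the haematopoietic genes it was so in 1 of 6 (Fmnl1) and among the relatives in 6 of 7 (all but Coro1b). The ratio was 0.229 at Was and 0.923 at Wasl, 0.273 at Nckap1l and 1.01 at Nckap1, and 0.114 at Myo1f and 0.74 at Myo1e. The formin genes differed little, with 0.797 at Fmnl1, 0.779 at Diaph1 and 0.733 at Diaph2. At Coro1a it was 0.337, and 0.481 from its basic-set start, but 0.703 in the 300 bp window shown above. The relatives of Coro1a had 0.544 (Coro1b) and 0.882 (Coro1c). At Lcp1 the ratio was 0.57, close under the limit of 0.6 and above that of Coro1b, and 0.47 from its basic-set start. Of all coding genes with a CpG-rich start 54.1% were marked, and of the others 11.4%. Of the 5 haematopoietic genes whose start was not CpG-rich, 4 were marked, and the remaining one, Coro1a, was marked from its basic-set start. Over marked coding genes the coverage began at a median of 389 bp from a CpG-rich basic-set start and 170 bp from any other, with 536 bp against 402 bp in replicate 1 and 359 bp against 166 bp in replicate 2. The part of CpG content in the contrast of the pairs was not tested.

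**Figure D5:**
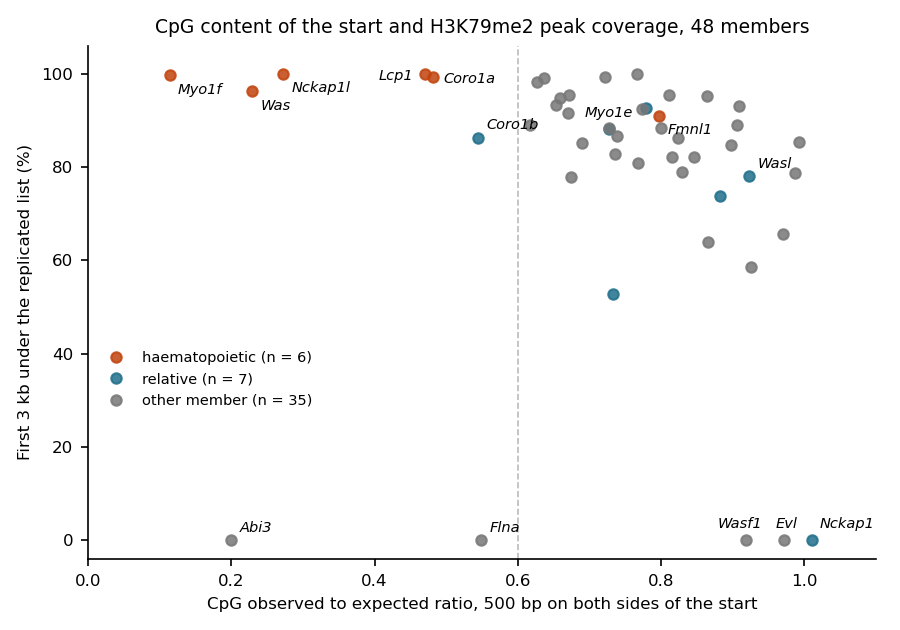
CpG observed to expected ratio of 500 bp on both sides of the outermost basic-set start against the percent of the following 3 kb under the replicated list, for the 48 genes (orange, haematopoietic; blue, relatives; grey, others); the dashed line marks a ratio of 0.6. The haematopoietic genes apart from Fmnl1 lie left of the line with at least 96.2% covered. Genes with 0% lie on both sides, Abi3 and Flna at the left and Wasf1, Evl and Nckap1 at the right.

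Of the other genes unmarked in the replicated list, Evl and Flna were marked from another start, and Wasf1, Nckap1 and Abi3 were not. Evl, an Ena/VASP gene, had no covered base at its first starts in any list and was marked 81033 bp further in, from the basic-set transcript Evl-204, where 2859 bp of 3 kb were covered, 1923 bp in replicate 1 and 3000 bp in replicate 2. Over the gene the lists covered 12642, 5261 and 35892 bp. Flna, which encodes the cross-linker filamin A, had none of its outermost window covered in the replicated list and in replicate 1 and 562 bp in replicate 2. From Flna-201, which starts 3265 bp further in, 1104, 670 and 749 bp were covered, and over the gene 5722, 3113 and 8217 bp (21.7%, 11.8% and 31.2%). Counted at any annotated start, 45 of the 48 genes were marked in the replicated list and in replicate 1, and 46 in replicate 2, against 32.9%, 29.7% and 38.4% of all coding genes.

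Abi3, which encodes a WAVE complex subunit known from microglia and other blood-derived cells, was marked by replicate 2's list and had no covered base in replicate 1's. Replicate 2 covered 2780 bp of its first 3 kb and 5899 bp (47.6%) of the gene at a fold of 16.9, and replicate 1 covered no base. The pooled list covered 2696 bp of the window at a fold of 9.01, and the replicated list none. Abi3 overlaps Zfp652, Phospho1 and Gngt2, and Gngt2 on the other strand, which encodes a G protein γ subunit, had 3000 bp of its own window covered in replicate 2 and none in replicate 1. Peaks carry no strand, so the peak cannot be assigned to Abi3 or Gngt2.

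Across the genes marked in both replicates, replicate 2 covered more bases of the gene in 42 of 42. Replicate 1's bases were a median of 82.1% of replicate 2's, against 62.1% over all coding genes marked in both. The overlap of the replicates within a gene, as bases covered in both divided by bases covered in either, had a median of 81.3%, against 61.3%. It was highest at Cfl1 (97.6%) and lowest at Diaph2 (33.7%), Tln1 (39.2%), Nckap1l and Vasp (both 44.8%). Among haematopoietic genes, Was had 52.3%, Lcp1 48.8% and Fmnl1 90.6%.

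Of 47 listed paralogues outside the 48 genes, 12 were marked (25.5%), near the 30.3% of all coding genes, and 34 had no covered base. This list, like the 48 genes, was chosen with earlier results of these data known. Replicate 1 marked 11 (23.4% against 27.2%) and replicate 2 marked 14 (29.8% against 35.6%). The muscle actin genes Acta1, Acta2 and Actc1 had no covered base. Chosen after their values were seen, Capg and Tmsb10 may be set beside their relatives Gsn and Tmsb4x: Capg, a capping gene of macrophages, had 69.3% covered (52.5% in replicate 1 and 72.3% in replicate 2) and Tmsb10 65.5% (37.2% and 69.5%). The most covered of the marked paralogues were Coro2a (41872 bp, a fold of 15.2), Fmnl3 (28453 bp, 7.29) and Wipf2 (20361 bp, 11.5).

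Sequence matches at the starts were searched in RefSeq windows of the form shown above, on both strands, for 40 of the 48 genes (48 windows). Actb, Arpc5l, Nckap1, Nckap1l, Cyfip1, Abi3, Coro1b and Diaph1 were not among them. The CArG box, the site of serum response factor known from actin genes, was found in 4 windows (8.33%), those of Actg1, Arpc4, Myo1e and Vcl, and in 1.51% of 20150 windows of coding genes. The GAGGAA core recognised by PU.1 was found in 13 windows (27.1%) of 12 genes, against 27.2% of all windows, and in 3 of the 7 windows of haematopoietic genes, those of Was, Fmnl1 and Myo1f. The TATAAA box was found in 1 window (2.08%), that of Myh9, against 12.1%. The windows of Actg1 (chr11:120348446-120348745, minus strand) and Vcl (chr14:20929148-20929447, plus strand) are shown with the CArG box in capitals, as both a core actin gene and an adhesion gene hold it.
Actg1: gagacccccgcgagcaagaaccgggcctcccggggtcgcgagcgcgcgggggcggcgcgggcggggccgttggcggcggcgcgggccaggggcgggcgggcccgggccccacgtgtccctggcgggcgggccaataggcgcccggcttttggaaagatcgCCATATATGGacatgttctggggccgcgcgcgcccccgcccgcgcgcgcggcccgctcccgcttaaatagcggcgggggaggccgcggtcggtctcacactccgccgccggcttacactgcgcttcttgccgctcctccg
Vcl: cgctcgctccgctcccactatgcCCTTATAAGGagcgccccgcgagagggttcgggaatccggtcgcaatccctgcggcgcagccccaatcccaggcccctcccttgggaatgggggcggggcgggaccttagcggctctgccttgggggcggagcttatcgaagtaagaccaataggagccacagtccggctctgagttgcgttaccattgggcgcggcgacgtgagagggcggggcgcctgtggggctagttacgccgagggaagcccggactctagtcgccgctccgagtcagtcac
The box lay 90 bp before the start in Actg1 and 227 bp before it in Vcl, and no base of either window was under the replicated list. Of the 4 genes, Vcl and Arpc4 differed widely in coverage, with 13.0% and 81.9% of the gene covered. A match of letters is a description and does not show that a factor bound there.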

How the data were processed

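H3K79me2 ChIP-seq peaks of 2 biological replicates, which form 1 group, were taken from 4 deposited lists on mm10. Per the deposited text notes, the lists came from replicate 1, replicate 2, the pooled alignments, and both replicates together (the replicated list). For the aligner, the caller, thresholds and scaling of the control, the sources used here give nothing. The deposited score of each peak was not used. The deposited fold is the authors' ratio of a peak over the control and was used within a list alone, to describe, rank or filter its peaks. The −log10 p that the authors deposited was not used, and the deposited −log10 q served only to leave out peaks with q over 0.05 as an alternative. The files hold no counts, so depth, intervals and floors could not be given.

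Peaks were merged within a list and intersected with GENCODE M21 protein-coding genes (GRCm38) in Python 3.11.15 with numpy 2.4.6. A gene was marked at 200 bp or more of the first 3 kb. The code was tested on simulated peaks. All 48 genes may be named. Full values were given for haematopoietic genes and their relatives, genes unmarked in the replicated list or marked in 1 replicate, and the 5 highest by fold, block and covered share. Of paralogues, at most 3 marked genes, those most covered, and at most 3 unmarked ones in list order were named. Besides these, Fmnl2, Pls1 and Pls3 were named as relatives of haematopoietic genes, and Capg and Tmsb10 were added after their values were seen. A list of upstream genes is not reported here. The members and all lists were chosen with earlier results of these data known. Alternatives were each replicate's list, the pooled list, the median fold, the minimum, the window, the start and leaving out overlapping genes.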

Additional observations from a re-analysis of the deposited data

How the results depend on the processing

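The 42 marked genes became 37 when peaks under the list's median fold were dropped (22.3% of all coding genes), 38 in the first 1 kb (25.0%) and 44 in the first 5 kb (31.1%). They became 43 with a minimum of 1 bp (30.7%) or from basic-set starts (31.2%). Of the 31 genes that overlap no other coding gene 28 were marked, but the share over all such coding genes was not computed. The median share of the first 3 kb covered, 85.3%, ranged from 71.6% to 89.7% when a replicate was left out and was 60.3% in the first 1 kb. The median share of the gene, 59.5%, ranged from 49.1% to 63.4% when a replicate was left out. Of the 45 genes with covered bases, 11 had a covered share over 1.5 times lower without replicate 2 (Arpc5l, Coro1b, Diaph2, Vasp, Evl, Myo1e, Flna, Lcp1, Actn1, Vcl and Tln1), and 2 had one over 1.5 times higher without replicate 1 (Nckap1l and Evl). The lists hold no read counts, so how much of the gap between the replicates comes from depth was not tested. No paired analysis was possible because the data hold 1 group and no test was run.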
